A study of Schizosaccharomyces pombe with 6 samples.

Results

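Binding of Pds5-GFP was compared between fission yeast cells that lack swi6 and wild-type cells, probe by probe along the genome. The comparison used 3 of the 6 arrays of the series, chosen by their labels. They are 1 array of Pds5-GFP in swi6Δ cells and 2 arrays of Pds5-GFP in wild-type cells. Of the 41551 probes that are not controls, 41350 had a value on all 3 arrays. A further array, of H3K9me2 in wild-type cells, gave the level of the heterochromatin mark at each probe, and the Pds5-GFP array of clr4Δ cells stands beside a few values.

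Both genotypes express Pds5 fused to GFP, and the labels name no other allele. Cultures grown in YEA, a rich medium, at 30 °C were moved to 18 °C for 2 h. They were then fixed with 3% paraformaldehyde and DMA, a protein cross-linker. Chromatin was sheared to between 500 and 1000 bp and precipitated with an antibody against GFP. ChIP DNA (Cy5) and DNA of the whole-cell extract (Cy3) were amplified with random primers and hybridised together. The H3K9me2 array came from cells fixed without DMA and, per the labels, without the step at 18 °C. Swi6 is known as the HP1 protein of fission yeast. It binds nucleosomes that the methyltransferase Clr4 has marked with H3K9me2, at centromeres, the silent mating-type cassettes and chromosome ends. Pds5 associates with cohesin, a ring-shaped complex that keeps sister chromatids paired, and regulates its hold on DNA. Swi6 is known to recruit cohesin to pericentromeric heterochromatin. On chromosome arms, cohesin is known to collect between genes that are transcribed towards each other.

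Each Pds5-GFP value below is log2 of ChIP over extract minus the array's median, called the Pds5-GFP ratio, so the median probe of an array stands at 0. The value of a region is the median over its probes, and a difference is the median, probe by probe, of swi6Δ minus the mean of the wild-type pair. A probe is a 300 bp step of the array's tiling, and positions are the array's own tile positions. With 1 swi6Δ array no region was tested. Whether the wild-type arrays stem from separate cultures is not in the labels, so their spread may be technical. The swi6Δ array and wild-type array 2 share a slide per the file headers, while wild-type array 1 lay on another, so the value against array 2 is the comparison within a slide.

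The labels held for the deleted gene. In the extract, the 3 probes in the deleted part of swi6 lay at a median of -6.85 on the swi6Δ array, against -0.61 and -0.34 on the wild-type arrays, relative to each array's median. Over all probes the swi6Δ array correlated with the wild-type arrays at r = 0.813 and 0.847, and these correlated with each other at r = 0.961. From 99.91% to 99.94% of the probes of the 3 arrays were well above background in both channels, and none was saturated. Of the 41551 probes, 1697 have a suffixed name, and no source used here explains the suffix. They are most of the probes of the centromeric repeats (171 of 176), the central domains (71 of 103), the left end of I (125 of 156), the mating-type tiles on II (20 of 29), and all of those of the rDNA, the mat1 cassette and the pNSU contigs. They are also 11 of 17 and 9 of 16 probes in the 5 kb left and right of the repeats of centromere 2.

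Without Swi6, Pds5-GFP was lower over the centromeric repeats, the mating-type cassettes and the chromosome ends, and remained near its wild-type level over nearly all of the arms. A running median over 3 neighbouring probes put 791 of 41549 probes (1.90%) at least 1 below both wild-type arrays, and 0 probes at least 1 above both. Of single probes, 1 of 41350 (0.00242%) lay at least 1 above both. Of the 791, 346 lay in the last 50 kb at the ends of chromosomes I and II, 184 in the centromeric repeats and 92 in short contigs whose names start with pNSU. A further 53 lay in the silent mating-type region, 34 in the 20 kb on either side of the centromeric repeats, 13 in the central domains of the centromeres and 25 on the arms. The running median also gives a value to probes that lack one of their own on an array, so its counts can pass those of single probes. The probes formed 30 domains of loss that together covered 322.2 kb. Probes with a suffix made up 585 of the 791. In the ChIP channel alone, without dividing by the extract, 663 of the 791 were again at least 1 below both wild-type arrays.

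The domain at the right end of chromosome I was 50.1 kb long, the whole of the stretch examined there, and that at the left end of I was 36.6 kb long. The domains on either side of centromere 3 spanned 27.6 and 36.9 kb of tiles, and those of centromere 2 20.4 and 14.4 kb. Centromere 1 had domains of 12.9 and 8.4 kb, and a domain of 21.3 kb covered the silent mating-type region. At the ends of chromosome II the domains nearest the end were 15.6 kb long on the left and 12 kb on the right. Shorter domains lay at mat1, at the mating-type tiles of chromosome II and, from 50 to 100 kb inward, near the left ends of I and II. Outside all named regions, 11 domains remained, of which 7 were pNSU contigs. The other 4 lay at ura4, mae1, mae2 and swi6 itself. In the swi6 domain the extract too was low in swi6Δ, at -1.69, against -0.07 and -0.15 in wild type.

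**Figure D1:**
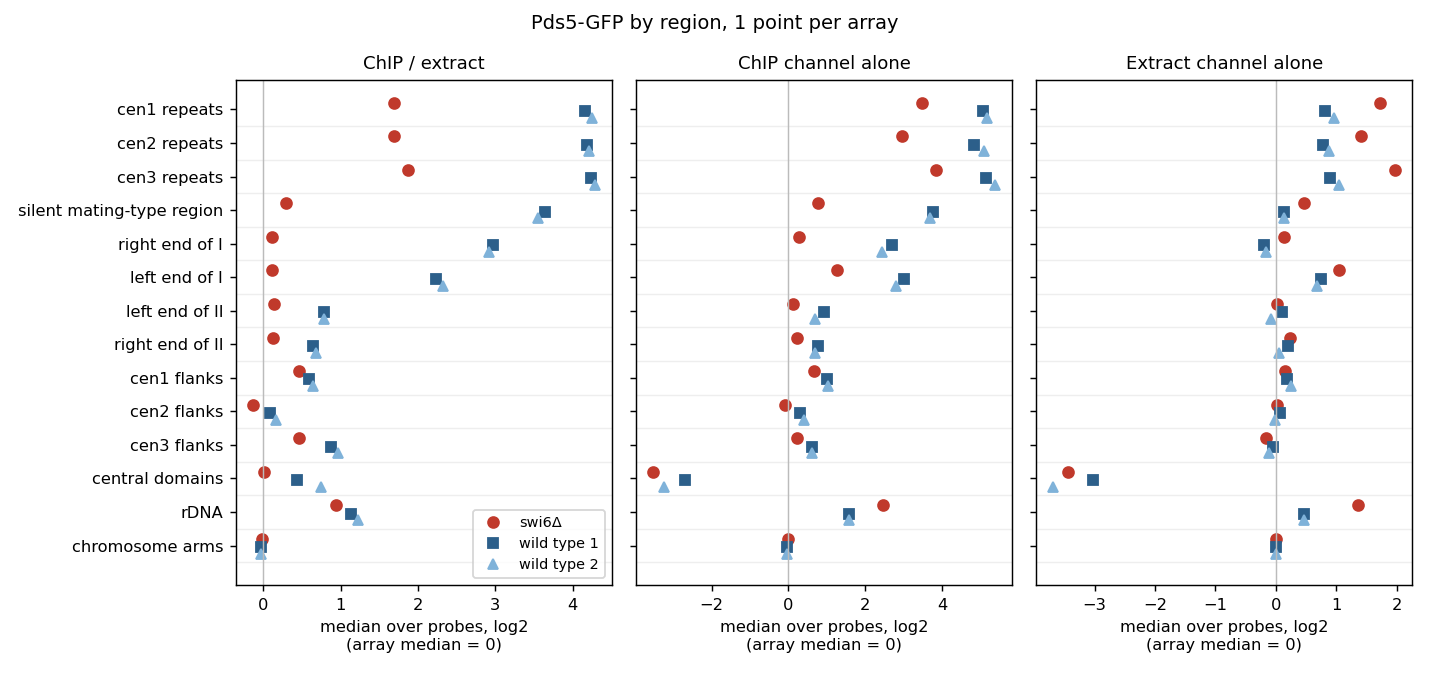
Median Pds5-GFP over the probes of each region (rows), with 1 point per array: swi6Δ as a red circle and the wild-type arrays as a dark square and a light triangle. The panels show, on a log2 scale with the array median at 0, ChIP over extract, the ChIP channel alone and the extract channel alone. The swi6Δ point lies at 1.69 to 1.86 at the repeats against 4.16 to 4.29 in wild type, and close to the wild-type points on the arms. In the extract panel the swi6Δ point is the highest of the arrays at the repeats, the rDNA, the silent mating-type region, both ends of I and the right end of II.

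At the pericentromeric repeats, the tandem and inverted elements from which RNA interference nucleates heterochromatin, Pds5-GFP was lowered but not to the level of the arms. The 176 probes had a median ratio of 1.78 in swi6Δ cells, against 4.21 and 4.26 on the wild-type arrays. The difference was -2.46, or 18.2% of the wild-type ratio, and all 176 single probes lay at least 1 below both wild-type arrays (1.92% of all probes did). The 3 centromeres had like values, but 56 of 57, 37 of 41 and 78 of 78 of their repeat probes carry a suffix. Whether these probes read sequence shared between the centromeres was not tested, so the values may not be 3 separate results. The repeats of centromere 1 stood at 1.69 in swi6Δ, against 4.16 and 4.25 in wild type. Those of centromere 2 stood at 1.69, against 4.19 and 4.21. Those of centromere 3 stood at 1.86, against 4.23 and 4.29.

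The signal left at the repeats was above the threshold of 1 used here for bound probes at 173 of the 176 probes in swi6Δ, as against all 176 in wild type. Part of the difference in ratio lay in the extract, where the repeats were brighter on the swi6Δ array, at 1.85 against 0.82 and 1.01 in wild type. The ChIP channel alone had a median of 3.54 in swi6Δ, against 5.08 and 5.30 in wild type, a difference of -1.60. Whether the repeats are present in more copies in the swi6Δ cells was not tested. Of the 176 probes, 171 carry a suffix. The 5 without one differed by -2.23, with wild-type medians of 3.69 and 3.72, while their extract differed by -0.13.

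**Figure D2:**
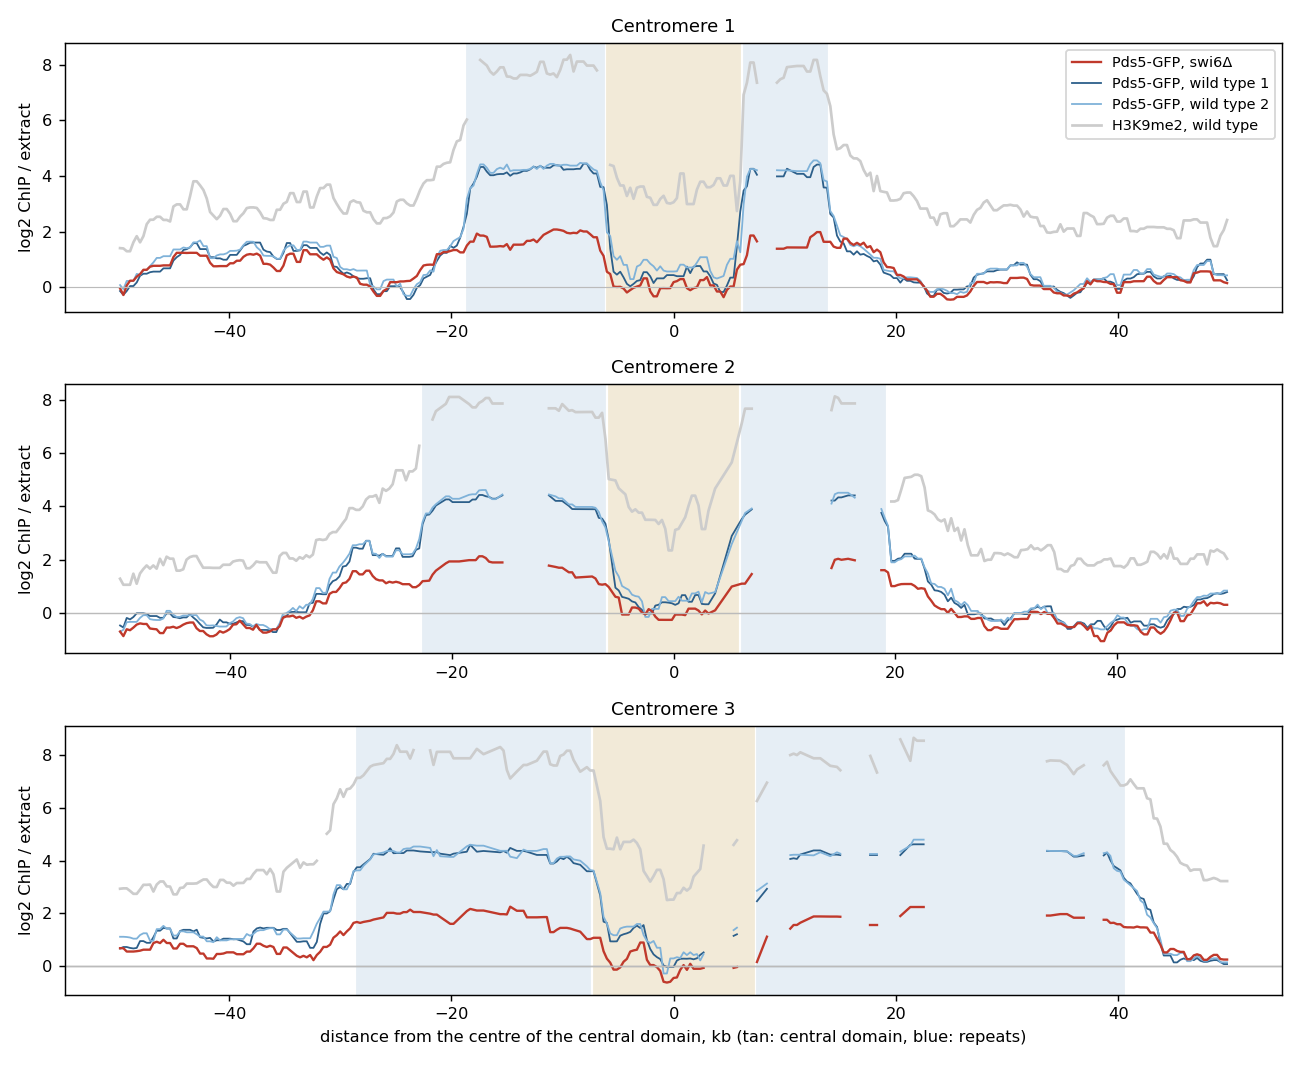
Running median of 3 probes of log2 ChIP over extract along each centromere, against distance in kb from the middle of the central domain (tan; repeats in blue). Red is Pds5-GFP in swi6Δ, dark and light blue are the wild-type arrays, and grey is H3K9me2 in wild type; lines break where no probe lies. Over the repeats the red line has a median of 1.78 and the blue lines of 4.21 and 4.26, and a little to the right of the repeats of centromere 1 the red line runs above both blue lines, a direction that normexp correction turns.

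The 20 kb on either side of the repeats carry H3K9me2 in wild type, at medians of 2.35 to 3.20 for the centromeres, and their differences were smaller. In the 5 kb next to the left repeats of centromere 3, Pds5-GFP stood at 0.82 in swi6Δ, against 2.09 and 2.08 in wild type (17 probes). Left of centromere 2 it stood at 1.14 in swi6Δ, against 2.17 and 2.22. Right of centromere 2 it stood at 0.95, against 1.94 and 1.91. At these 3 flanks the swi6Δ value was 41.5% to 52.2% of the wild-type ratio. Right of centromere 3 it was 1.28 in swi6Δ, against 1.66 and 1.64 in wild type.

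The flanks of centromere 1 had other values, though the difference between centromeres was not tested. In the 5 kb left of its repeats Pds5-GFP stood at 1.04 in swi6Δ, against 1.04 and 1.09 in wild type, where H3K9me2 stood at 4.38. In the 5 kb to the right it stood at 1.48 in swi6Δ, against 1.20 and 1.47 in wild type, where H3K9me2 stood at 4.58. Of the 17 probes there, 12 lay above both wild-type arrays (36.4% of all probes did) and 4 below both (33.0% of all probes did). The 4 were the tiles nearest the repeats, where the first tile had 1.46 in swi6Δ, against 2.63 and 2.74 in wild type. Next to them, tile 3787200 had 1.81 in swi6Δ, against 1.64 and 1.73, and the outermost tile, 3790800, had 0.90, against 0.53 and 0.62. The median difference of the 17 probes was 0.23, and it turned to -0.12 with another background correction (normexp). None of the 17 carries a suffix, and in the ChIP channel alone the difference was 0.11. Transfer RNA genes, known as boundary elements at fission yeast centromeres, lie mostly in the flanks (31 of 41 centromeric ones). Each tRNA gene was read as the running median of 3 probes at its nearest tile, so neighbouring genes can share a value. The 41 centromeric ones had a median of 1.05 in swi6Δ, against 2.10 and 2.08 in wild type. The 115 elsewhere had 0.09, against 0.21 and 0.21.

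The central domains, where the kinetochore forms, had little Pds5-GFP on any array. Their 103 probes stood at 0.01 in swi6Δ, against 0.43 and 0.75 in wild type, so the wild-type pair themselves lay apart. The extract was dim there, at -3.44 in swi6Δ and at -3.02 and -3.68 in wild type. The median difference of -0.59 turned to 1.26 with normexp correction, so no direction is given for these domains.

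The silent mating-type region holds the unexpressed donor cassettes for mating-type switching, and most of its Pds5-GFP signal was absent in swi6Δ. Its 53 probes on the contig for this region had a median of 0.30 in swi6Δ, against 3.64 and 3.55 in wild type. The difference was -3.11, or 11.5% of the wild-type ratio, and -2.73 in the ChIP channel alone. Of the 53, 15 carry a suffix. The cassette mat1, the expressed copy, shares its sequence with the silent cassettes, and its 4 probes on the contig had 0.04 in swi6Δ, against 3.29 and 3.14 in wild type. The 29 mating-type probes tiled on chromosome II gave 0.16, against 3.28 and 3.17.

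The loss was not even along the silent region. In a middle stretch around tile 29700, set off after the values had been seen, 15 probes kept a median of 1.48 in swi6Δ, against 4.09 and 4.18 in wild type. Tile 29700 itself held 2.07 in swi6Δ, against 4.67 and 4.65. The 21 probes to the left of the stretch had 0.23 in swi6Δ, against 3.52 and 3.46. The 13 to its right had 0.21, against 3.48 and 3.37. The level left in the middle stretch was thus near that of the centromeric repeats (1.78), and the level beside it near that of the arms. None of the 15 probes carries a suffix. In the extract they differed by 0.82, near the 0.84 of the repeats, where the probes to the left and right differed by 0.41 and 0.36. Their H3K9me2 stood at 7.57 in wild type, against 6.74 and 6.43 in the stretches to the left and right. The silent region is known to hold cenH, an element alike in sequence to the pericentromeric repeats. The contig was not laid on a reference sequence, so whether the stretch is cenH was not tested.

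**Figure D3:**
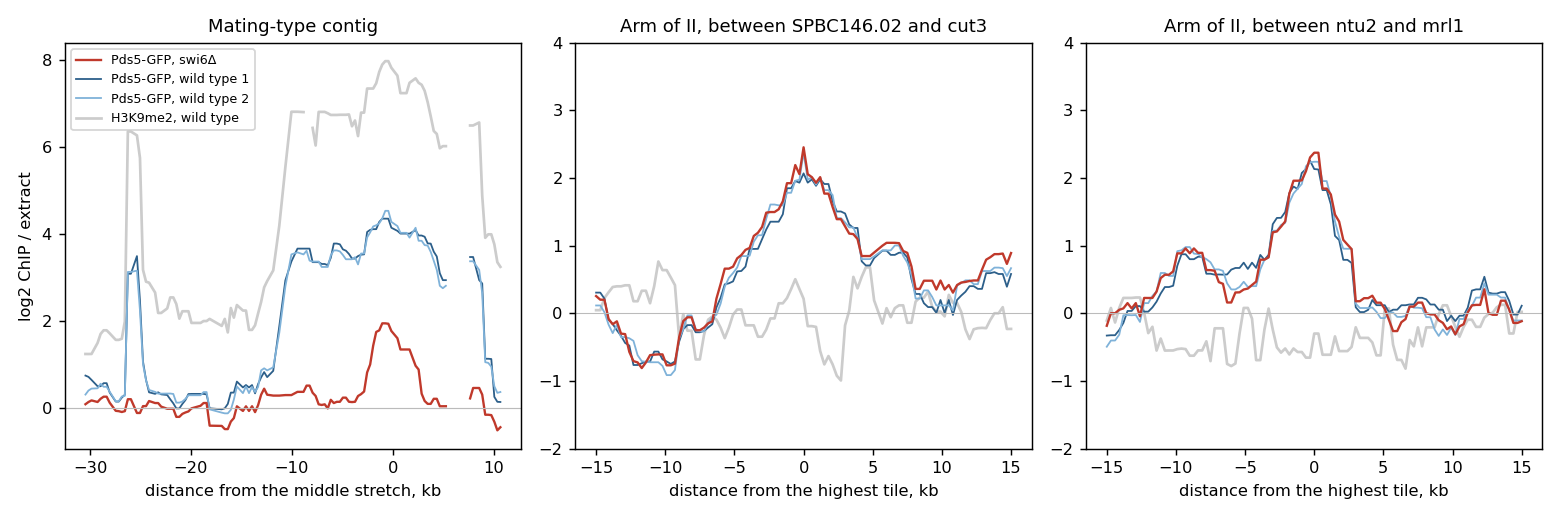
Running median of 3 probes of log2 ChIP over extract along the mating-type contig (left) and around 2 of the 10 highest Pds5-GFP peaks of the arms in swi6Δ, both on chromosome II (middle and right), against distance in kb. Red is Pds5-GFP in swi6Δ, blue the wild-type arrays, grey H3K9me2 in wild type. On the contig the red line rises only in the middle stretch, while at the arm peaks, where H3K9me2 is near 0, the red and blue lines reach 2.07 to 2.45 together.

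At the chromosome ends, Pds5-GFP in swi6Δ was near the level of the arms (-0.01). Over the last 50 kb, the right end of I had 0.12 in swi6Δ, against 2.97 and 2.92 in wild type (159 probes). The left end of I had 0.11, against 2.24 and 2.32 (156 probes, 125 with a suffix). The left end of II had 0.14, against 0.78 and 0.79, and the right end of II had 0.13, against 0.64 and 0.68. The wild-type levels of the 4 ends thus ran from 0.64 to 2.97, and the swi6Δ levels from 0.11 to 0.14. The ratio differed by -2.75 at the right and -2.12 at the left end of I, and the ChIP channel alone by -2.37 and -1.61. At the left and right ends of II the ratio differed by -0.51 and -0.50, and the ChIP channel by -0.62 and -0.53.

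The difference reached further inward on chromosome I than on II. On the right of I the difference was between -1.98 and -3.15 in each 10 kb step up to 50 kb, and -0.40 from 50 to 75 kb. On the left of I it was -2.90 and -3.24 in the first 20 kb, -1.79 from 30 to 40 kb and -0.66 from 40 to 50 kb. On the left of II it was -1.96 and -1.85 in the first 20 kb and -0.39 from 40 to 50 kb. On the right of II it was -1.88 in the first 10 kb, and -0.66 from 10 to 20 kb. From 50 to 100 kb the 643 probes of the 4 ends had 0.05 in swi6Δ, against 0.39 and 0.40 in wild type. Within that zone, 4 probes at SPAC977.14C (tiles 60600 to 61500 of I) had 0.06 in swi6Δ, against 2.57 and 2.31, and all 4 carry a suffix. In the 10 kb nearest the left end of I a small signal was left, 0.52 in swi6Δ, against 3.37 and 3.34. The extract there differed by 1.04 and the ChIP channel alone by -1.86, beside -2.90 for the ratio.

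**Figure D4:**
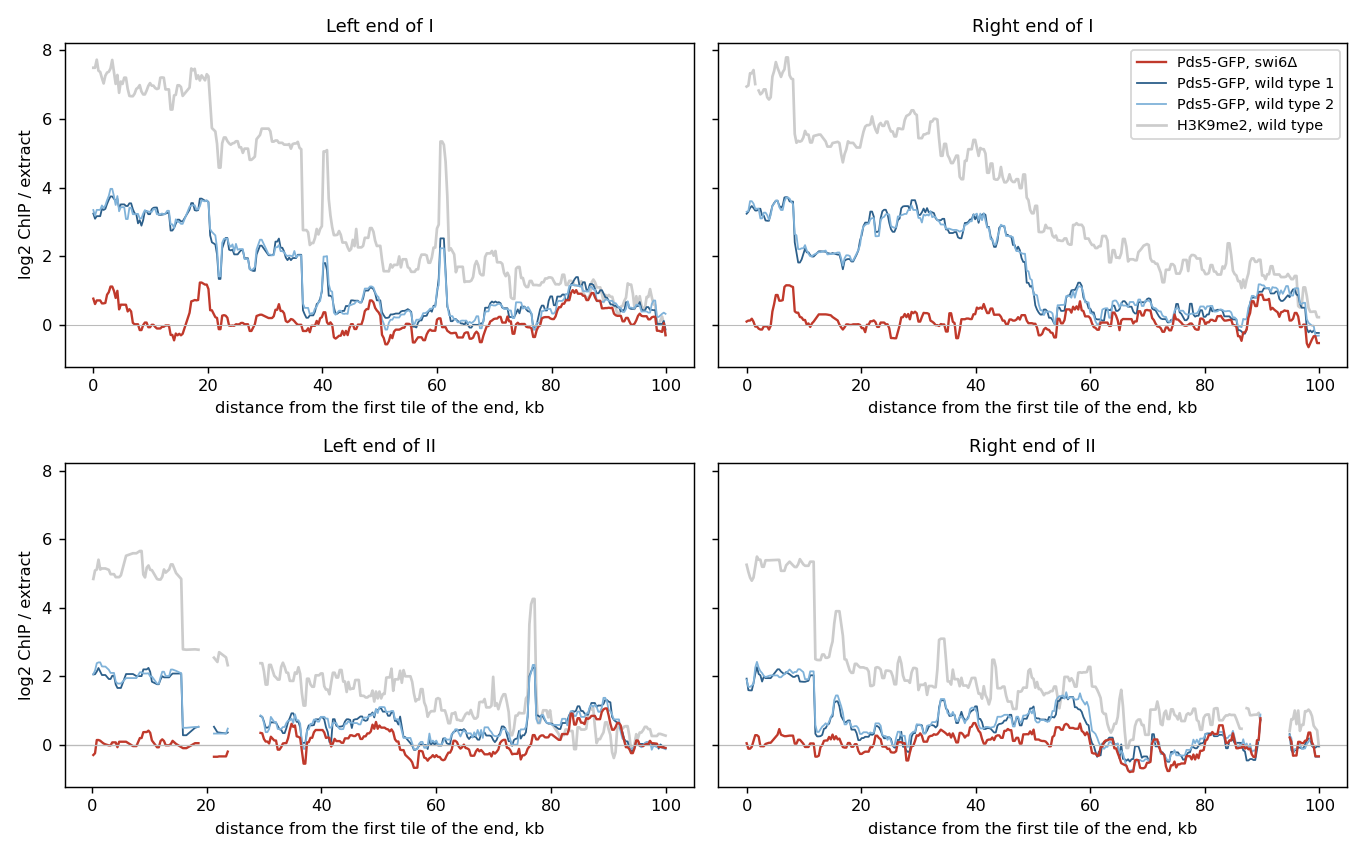
Running median of 3 probes of log2 ChIP over extract over the last 100 kb of both ends of chromosomes I and II, against distance in kb from the first tile. Red is Pds5-GFP in swi6Δ, blue the wild-type arrays, grey H3K9me2 in wild type. In the first 10 kb at the left end of I the red line has a median of 0.52 and the blue lines of 3.37 and 3.34, and from 75 to 100 kb there the medians are 0.26, against 0.59 and 0.58.

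The rDNA differed little between the arrays. Its 78 probes at the ends of chromosome III, all with a suffix, had 0.94 in swi6Δ, against 1.13 and 1.22 in wild type, with H3K9me2 at 3.20. Between the rRNA genes, 37 probes held 1.96 in swi6Δ, against 1.99 and 2.06. Over the rRNA genes, 41 probes held 0.72, against 0.93 and 0.97. The direction is unsettled, since the difference over all 78 (-0.15) turned to 0.06 after scaling the arrays to equal deviation and to 0.67 in the ChIP channel alone. The pNSU contigs, all of whose probes carry a suffix, were not alike. The 29 probes of pNSU71 had 0.21 in swi6Δ, against 0.16 and 0.16 in wild type, and pNSU68 differed by -0.24. The 26 probes of pNSU21 had a ratio of 0.97 in swi6Δ, against 2.29 and 2.52 in wild type, while their ChIP channel differed by -0.39 and their extract by 1.03. The ratios of pNSU64, pNSU65, pNSU70 and pNSU77 differed by -1.40 to -1.28 and their ChIP channel by -0.45 to -0.17. How much of the lower ratio reflects binding was not tested.

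Loss was then set against the wild-type level of H3K9me2, over the 40062 probes with both values. Where the mark was at 0 to 1, the median difference was 0.01, and below 0 it was 0.04. With normexp these turned to -0.20 and -0.24. The difference was -0.13 at H3K9me2 of 1 to 2, -0.28 at 2 to 3 and -0.35 at 3 to 4. It was -1.14 at 4 to 5, -1.91 at 5 to 6, -3.03 at 6 to 7 and -2.51 at 7 and over. Suffixed probes were 203 of 279, 84 of 148 and 194 of 233 in the last 3 of these bins. At 4 to 5 they were 91 of 178. Without them the difference was smaller at 4 to 5, at -0.89. It was larger above, at -2.93 at 5 to 6, -3.12 at 6 to 7 and -2.65 at 7 and over. The swi6Δ level itself hardly varied over most of this range, at 0.29, 0.29 and 0.30 in the bins from 4 to 7, where wild-type array 1 had 1.69, 2.20 and 3.23 and array 2 had 1.74, 2.34 and 3.18. In the bin of 7 and over, of which the centromeric repeats are 151 of 233 probes, swi6Δ held 1.57, against 4.07 and 4.18.

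The share of single probes at least 1 below both wild-type arrays was 0.119% at H3K9me2 of 2 to 3 and 5.10% at 3 to 4. It was 53.4% at 4 to 5, 90.3% at 5 to 6, 93.9% at 6 to 7 and 99.1% at 7 and over. Without suffixed probes these 4 shares were 46.0%, 73.7%, 92.2% and 94.9%. Pds5-GFP reached 1 on both wild-type arrays at 10.6% of probes at 2 to 3, 38.8% at 3 to 4 and 77.0% at 4 to 5. Falls of 1 or more were therefore harder to reach in the lower bins. Of the 742 loss probes with an H3K9me2 value, 740 had one of at least 1. Over all 40062 probes, difference and H3K9me2 correlated at r = -0.74 (Spearman's rho = -0.27), and without suffixed probes at r = -0.54. The probes share the same 4 arrays and neighbours overlap in their fragments, so this is a description. Within the ends of II r was -0.92 and within the ends of I -0.82. It was -0.56 in the centromere flanks, -0.29 on the arms and -0.06 in the silent mating-type region. The difference itself contains the wild-type value, and it correlated with wild-type Pds5-GFP at r = -0.91 within the ends of II and -0.92 within the ends of I. Wild-type Pds5-GFP correlated with H3K9me2 there at r = 0.90 and 0.89. Whether the difference follows the mark or the wild-type level was not tested.

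A given H3K9me2 level went with unlike losses in different places. At 4 to 5, the 47 probes of the ends of I differed by -2.43 and the 19 of the ends of II by -1.79, but the 40 of the centromere flanks by -0.45 and the 22 of the arms by -0.51. Those groups also differed in wild-type Pds5-GFP, with array values of 2.55 and 2.64 at the ends of I and of 1.49 and 1.62 in the flanks. The flanks nonetheless held more Pds5-GFP without Swi6, at 1.19 against 0.12 at the ends of I. None of these differences between places was tested.

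Of 907 probes with H3K9me2 of at least 3 and Pds5-GFP of at least 1 on both wild-type arrays, 728 were at least 1 lower in swi6Δ and 20 were at or above the lower wild-type array (67.0% of all probes were). Those 20 were 11 probes in the flanks of centromere 1 and 9 in the rDNA. A further 1506 probes met the same Pds5-GFP cut-off but had H3K9me2 below 1. Of these, 0 were at least 1 lower, and 950 were at or above the lower wild-type array. The median difference of these unmarked probes was 0.01, beside -2.08 for the marked ones. The sets share the cut-off but not the level. In nearly every place the marked probes stood higher in wild type than the unmarked set. Their wild-type medians were 4.23 to 4.27 at the repeats and 3.58 in the silent mating-type region. Only 3 marked probes elsewhere on the mating-type contig stood lower as a group, at 1.09. Falls of 1 or more were therefore easier to reach in the marked set.

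**Figure D5:**
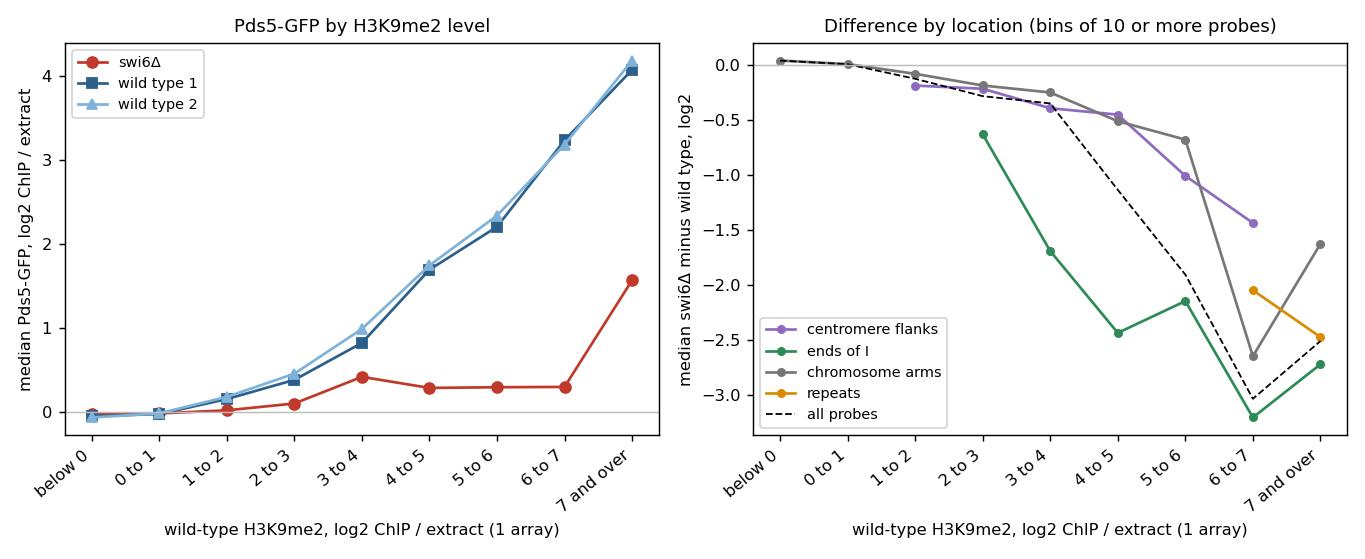
Left, median Pds5-GFP (log2 ChIP over extract) on the swi6Δ array (red) and the wild-type arrays (blue), for probes in bins of the wild-type H3K9me2 level. Right, the median difference of swi6Δ minus wild type in the same bins by location, for bins of 10 or more probes. The red line stays between 0.29 and 0.42 for H3K9me2 from 3 to 7 while the blue lines climb to 3.23, and at H3K9me2 of 4 to 5 the ends of I lie at -2.43 and the centromere flanks at -0.45.

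Small islands of H3K9me2 on the arms gave a mixed picture. There were 13 runs of probes on the arms with H3K9me2 of at least 3, of which 11 lay below both wild-type arrays by their median and 4 by at least 1. Those 4 were the runs at ura4, mae1 and mae2 and a run of 3 probes beside the mating-type cassettes on chromosome II (tiles 2130300 to 2130900). That run and the run over emc3 overlap the loss domain at the mating-type tiles, so they are not separate islands. At ura4, which encodes a uracil biosynthesis enzyme and is a common reporter gene, the gene mean was 0.62 in swi6Δ, against 3.33 and 3.11 in wild type. Its 4 probes carry no suffix, and their H3K9me2 averaged 6.68. The labels do not say whether the strains carry further copies of ura4, and a probe reads every copy of its sequence.

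At mae2, which encodes malic enzyme, the run had -0.06 in swi6Δ, against 2.94 and 2.94 in wild type. At mae1, which encodes a malate permease, the gene mean was 0.67, against 2.01 and 1.70. At both, the probes of the loss domain carry a suffix. Differences under 1 were seen at other islands. A run of 5 probes on chromosome II (tiles 2340000 to 2341200) had 0.46 in swi6Δ, against 1.27 and 1.37 in wild type. The run over emc3, near the mating-type cassettes, had -0.32, against 0.28 and 0.31, but its tiles 2138700 to 2139300 had 0.18, against 1.40 and 1.42. Other runs stayed above 1 in swi6Δ. The run over mei4, a meiotic transcription factor gene whose transcripts are removed in vegetative cells through the RNA-binding protein Mmi1, held 1.49 in swi6Δ, against 1.85 and 1.81, with H3K9me2 at 4.71. The run at vps29 and moa1 held 1.23, against 1.48 and 1.55. The run at tum1 held 1.15, against 1.60 and 1.70. The islands at mcp7 and ssm4, also Mmi1 targets, had little Pds5-GFP on any array, with -0.82 in swi6Δ, against -0.65 and -0.63, at mcp7 and 0.02, against 0.09 and 0.24, at ssm4.

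Without Swi6, Pds5-GFP signal remained on the arms, and at a lower level at the repeats. The series holds no array of cells without the GFP tag, so the background of the antibody was not measured. Probes called bound below are those that reach the threshold. In swi6Δ, 2560 of 41549 probes (6.16%) reached a running median of 1, and 2661 (6.40%) did so on both wild-type arrays. On the wild-type arrays taken singly, 2994 and 3213 probes did, and a call on both arrays is the stricter rule. The swi6Δ count was 1022 with normexp and 6943 in the ChIP channel alone, so the counts of bound probes and runs below hold for the present scaling. The shared 1803 were 70.4% of the swi6Δ set and 67.8% of the wild-type set. On the arms alone, 2161 probes were bound in swi6Δ, 1970 on wild-type array 1, 2139 on array 2 and 1665 on both wild-type arrays. The 1409 shared by swi6Δ and both wild-type arrays were 65.2% of the swi6Δ set and 84.6% of the set bound on both. Between the wild-type arrays, the shared arm probes were 84.5% of those bound on array 1 and 77.8% of those bound on array 2. Off the arms, 182 probes of the repeats were bound in swi6Δ and 184 on both wild-type arrays. In the flanks there were 89 in swi6Δ and 139 on both wild-type arrays, in the rDNA 38 and 50, in the pNSU contigs 59 and 101, and at the ends 13 and 358.

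On the arms the bound probes of swi6Δ formed 194 runs, of which 152 overlapped a run bound on both wild-type arrays. The other 42 stood near the threshold, with a median of 1.10 in swi6Δ, against 0.90 and 0.95 in wild type. Conversely, of the 159 runs bound on both wild-type arrays, a stricter rule than for the 1 swi6Δ array, 144 overlapped bound probes in swi6Δ. Of the 15 that did not, 6 had H3K9me2 of at least 3 and 9 had it below 1. The share of marked runs among all 159 is not given. The 9 stood just under the threshold, at 0.68 to 0.99 in swi6Δ. Among the 6, the runs at tiles 2130300 and 2138700 of II are edges of the loss domain at the mating-type tiles. Among arm probes with H3K9me2 below 1, those at 2 or more on wild-type array 1 (31 probes) had a median of 2.16 in swi6Δ, against 2.19 and 2.12. Those at 1 to 1.5 on that array (1480 probes) had 1.19, against 1.20 and 1.19. In these bins the swi6Δ median lay between those of the wild-type pair. It lay above both where array 1 was at -1 to -0.5, with -0.61 in swi6Δ, against -0.66 and -0.66, and at -0.5 to 0, with -0.22, against -0.24 and -0.26.

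The peaks of the remaining runs were spread unevenly over gene layouts. Of the 194 runs, 29.9% had their peak between convergent genes, where 5.55% of arm probes lie, and 3.09% between divergent genes, where 14.1% lie. A further 53.6% had their peak within a gene, where 62.4% of arm probes lie. Probes between convergent genes averaged 0.33 in swi6Δ, against 0.32 and 0.31 in wild type. Those between divergent genes averaged -0.15, against -0.14 and -0.18. The difference between the 2 classes was 0.48 in swi6Δ, against 0.46 on wild-type array 1 and 0.495 on array 2.

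The highest run of the arms in swi6Δ lay between SPBC146.02 and cut3, which encodes a condensin subunit, on chromosome II. The runs were ranked by their swi6Δ peak, which favours swi6Δ values above wild type. A peak here is each array's highest running median within the run. It was 2.45 in swi6Δ, at tile 1002900, against 2.07 and 2.37 in wild type. The next, within nup211 of chromosome III, peaked at 2.38, against 1.75 and 1.83. The run between ntu2 and mrl1 peaked at 2.37, against 2.25 and 2.24. Others among the 10 highest lay by bub1, a spindle checkpoint kinase gene (2.27, against 1.86 and 2.13), and between cdc42, a cell polarity GTPase gene, and pss1 (2.25, against 2.13 and 2.31). The run by swi1, a replication fork protection gene, peaked at 2.21, against 1.64 and 1.91.

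Taken over genes, the same loss appeared at the ends. Of 4618 genes with at least 3 probes, limma called 160 lower in swi6Δ (3.46%) and 35 higher (0.758%) at a Benjamini-Hochberg adjusted p under 0.05, and at an unadjusted p under 0.05 there were 408 and 244. Scaling the arrays to equal deviation gave 305 lower and 418 higher, and loess gave 90 and 7. Its only residual degree of freedom comes from the pair of wild-type arrays, and the lone swi6Δ array is assumed to vary as they do. The standard error was 0.104 for every gene. The calls and adjusted p-values therefore compare these 3 arrays and do not carry the spread between swi6Δ cultures. By size alone, 28 genes lay at least 1 below both wild-type arrays (0.606%) and 0 lay at least 1 above (0%).

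Of 65 protein-coding genes that lie wholly in the last 50 kb of chromosomes I and II, 35 had enough probes. Of the 35, 32 fell and 0 rose by limma's test, and 20 met the size rule. Their median difference was -1.71, beside 0.01 over all genes tested. Largest was the fall at SPAC212.08C of the left end of I, to -0.04 in swi6Δ, against 3.24 and 3.26 in wild type. SPAC212.07C and SPAC212.09C near it, which are annotated as pseudogenes and so stand outside these 35, fell by 3.22 and 3.18. On the right end of I, pdc102, predicted to encode a pyruvate decarboxylase, had -0.37 in swi6Δ, against 2.78 and 2.91. SPAC186.08C and SPAC186.06, also at that end, fell by 3.07 and 2.96. The telomere-linked helicase gene tlh1 reaches beyond the tiles of the left end of I and is not among the 35. It had 0.76 in swi6Δ, against 3.48 and 3.51, a difference of -2.73, beside -1.67 in the ChIP channel alone.

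At the right end of II the galactose genes stood at low values on every array. gal1 had -0.11 in swi6Δ, against 0.29 and 0.48 in wild type, a fall of 0.50 (limma adjusted p = 0.000163). gal10 and tgd1, which overlap and share all their probes, fell by 0.33 (limma adjusted p = 0.0423). gal7 had -0.15, against 0.00 and 0.15, and did not pass (limma adjusted p = 0.28). The other 2 of the 35 that did not pass were ght7 and pan5.

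Of the 160 genes called lower, 71 lay in the last 100 kb of tiles at either end of a chromosome, where 149 of all 4618 genes lie. A further 12 lay within 20 kb of a centromere, where 39 of all genes lie. The other 77 were elsewhere, as were 4430 of all genes, with smaller falls. Leaving out ura4, mae2 and mae1, the largest of these was at emc3, near the mating-type cassettes on II, with -0.52 in swi6Δ, against 0.10 and 0.18 (limma adjusted p = 3.45e-08). SPAC922.03, just beyond 100 kb from the right end of I, had -0.28, against 0.24 and 0.21. pmt1, on chromosome II, had 0.32, against 0.83 and 0.82. By the wild-type H3K9me2 of the gene, limma called 0.78% of genes lower where the mark was below 0 and 1.90% at 0 to 1. The share was 19.1% at 1 to 2, 38.0% at 2 to 3, 60% at 3 to 4 and 84.4% at 4 and over.

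All 35 genes called higher had H3K9me2 below 1, as had 4304 of all 4618 genes. All 35 lay outside the ends and centromeres, as did 4430 of the 4618. The 35 stood at a median of 0.98 in swi6Δ, against 0.53 and 0.66 in wild type. Their median excess was 0.43 over wild-type array 1 but 0.28 over array 2, which shares the slide with swi6Δ, and in 31 of the 35 array 2 lay above array 1. Largest were ade3, a purine synthesis gene, with 0.81 in swi6Δ, against 0.12 and 0.41 in wild type, pog1 with 1.22, against 0.54 and 0.81, and tif302 with 1.22, against 0.48 and 0.87. The neighbour of ade3, rdp1, encodes the RNA-dependent RNA polymerase of the RNA interference pathway and had 1.54, against 0.85 and 1.29 (limma adjusted p = 0.000538). The neighbours atg12, an autophagy gene, and pap1, a stress transcription factor gene, rose by 0.41 each (limma adjusted p = 0.0039 and 0.0035). With normexp, rdp1 and pap1 turned to the other direction.

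Genes with the highest Pds5-GFP in swi6Δ were nearly as high in wild type. They were ranked on the swi6Δ array itself, which favours genes that read higher there than in wild type. opy1 had 2.18 in swi6Δ, against 1.98 and 2.08 in wild type. mrl1 had 2.13, against 1.95 and 2.11, and SPBC146.02 had 2.09, against 2.00 and 1.97. kri1, a ribosome biogenesis gene, had 2.05, against 2.02 and 1.85. cdc42 had 1.98, against 1.86 and 2.09. Of the 10 highest genes, those furthest above wild type were atg12 (2.03, against 1.66 and 1.58) and rfc3, which encodes a clamp loader subunit. rfc3 differed by 0.40, with 1.82 in swi6Δ (limma adjusted p = 0.0061), and with normexp its direction turned.

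Genes for the proteins of this system were then counted beside all genes, of which 3.46% were called lower and 0.758% higher. Of 13 genes for cohesin and its regulators, limma called 0 lower and 0 higher, with differences from -0.29 (rec8) to 0.10 (wpl1). rec11, a meiotic cohesin subunit gene, had the highest level of the 13 in swi6Δ, 0.92, against 1.03 and 1.05. Of 21 measured heterochromatin factor genes, 1 was called lower, swi6 itself, and 1 higher, rdp1. At swi6 the 3 deleted probes rest on almost no extract and had 0.30 in swi6Δ, against 0.28 and 0.24. The lower values lay next to them, in the loss domain at tiles 1703100 to 1703700, with -0.56, against 0.53 and 0.50. The difference at clr4 was 0.11 and at pds5 -0.05.

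Of 12 genes on a list of Mmi1 targets, limma called 2 lower (3.46% of all genes were), mei4 and vps29. The island at vps29 also covers moa1, so the call there is not particular to vps29. mei4 had 1.56 in swi6Δ, against 1.94 and 1.87, and vps29 had 1.24, against 1.54 and 1.59. After scaling to equal deviation the direction at mei4 turned. Their list had a median difference of -0.14, as had the 10 strain marker genes, of which only ura4 was called. The marker lys1, with H3K9me2 of 3.12, had 0.57 in swi6Δ, against 0.68 and 0.93, and did not pass. Of 15 strongly transcribed metabolic genes, limma called pdc101 lower (-0.97, against -0.73 and -0.54, a direction that normexp turned), of 8 heat-shock genes none, and of 46 measured ribosomal protein genes rps1701 (0.94, against 1.35 and 1.38). These are 1 of 15, 0 of 8 and 1 of 46, beside 3.46% of all genes. The medians of these 3 lists lay between -0.03 and 0.00. The 9 Tf2 retrotransposons measured had 0.90 in swi6Δ, against 0.77 and 0.82, with none called, and they are near-identical copies that share sequence.

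Cells without the methyltransferase Clr4 share these wild-type arrays as controls. Their values were 1.05 at the repeats (swi6Δ 1.78), 0.38 in the silent mating-type region (swi6Δ 0.30), 0.06 at the right end of I (swi6Δ 0.12) and 1.38 right of the repeats of centromere 1 (swi6Δ 1.48).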

How the data were processed

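ChIP-chip signals of Pds5-GFP were read from 2-colour Agilent arrays of swi6Δ (1) and wild-type (2) cells, with 1 wild-type H3K9me2 array. The scanner software was Agilent Feature Extraction 12.0.3.1, per the file headers. The processed Cy5 and Cy3 signals are intensity values that, per the file headers, had their background subtracted and their dyes balanced by linear scaling. The deposited scanner files also hold the same ratio, Cy5 to Cy3, in log10. The authors' deposited value table holds log2 ratios, which lay within 0.01 of the scanner ratio at 41249 of 41251 positions for swi6Δ and were not centred (medians -0.072, and -0.087 and -0.0914 for wild type).

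Of the 42968 spots of an array, 41551 are not controls. Outlier spots were left out (82 in swi6Δ, 72 and 99 in wild type). The value is log2(Cy5/Cy3) minus the array median, with no loess. Precision is limited by the number of arrays. No source used here names the genome build of the array. Genes of assembly ASM294v3 were matched to tiles by moving blocks of tiles in 50 bp steps until base composition followed the extract signal (r of 0.257 to 0.434 over the probes of a block). No reference coordinate is printed.

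A gene's value is the mean of at least 3 probes. The test over genes was limma's (version 3.58.1, R 4.3.3; lmFit and eBayes), with Benjamini-Hochberg adjustment at 0.05. Loss domains need 3 probes at 1 or more below both wild-type arrays, with gaps of up to 2 bridged. Named genes are the 14 largest falls by size, the 10 highest in swi6Δ, the 6 largest differences above 0, the 6 largest below 0 away from ends and centromeres, genes of loss domains and next to the 10 highest arm runs, list members that passed, and swi6, clr4 and pds5. The genes, regions and lists were chosen with earlier results of these data known. Of the 22 heterochromatin factor genes listed, 21 matched. Alternatives were normexp correction (offset 50), loess, equal deviation, the ChIP channel alone, the deposited values, spots well above background, leaving out suffixed probes or 1 wild-type array, and other thresholds. The alternatives for regions and H3K9me2 bins, and the middle stretch of the mating-type contig, were added after seeing the data.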

Additional observations from a re-analysis of the deposited data

How the results depend on the processing

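The losses at the repeats, the silent mating-type region and the 4 chromosome ends kept their direction under every alternative that gave a value. Over these the repeats ranged from -2.79 to -1.60 and the silent mating-type region from -3.60 to -2.73. The mutant rests on 1 array, and most probes of the repeats and of the left end of I carry a suffix of unknown meaning. Small differences on the arms depend on the scaling. Probes at least 1 lower numbered 205 without suffixed probes, and 814 to 860 with 1 wild-type array left out. Probes bound in swi6Δ numbered 1022 with normexp, 6943 in the ChIP channel alone and 646 at a threshold of 1.5. The median difference at H3K9me2 of 3 or more was -1.78. It was -2.19 with normexp, -1.58 with loess, -1.56 with equal deviation, -1.29 in the ChIP channel alone, -1.84 with the deposited values and -0.74 without suffixed probes. It was -0.52 for H3K9me2 of 2 or more, -2.40 for 5 or more, and -1.79 to -1.75 with 1 wild-type array left out.

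Convergent minus divergent in swi6Δ was 0.23 with normexp, 0.43 with loess, 0.56 with equal deviation and 0.64 in the ChIP channel alone. Genes called lower by limma (160) numbered 1389 with normexp, 90 with loess, 305 with equal deviation and 45 in the ChIP channel alone. Genes called higher (35) numbered 351, 7, 418 and 15 under the same settings, and 22 with the deposited values. Genes lower by size numbered 9 without suffixed probes and 28 to 29 with 1 wild-type array left out, and genes higher by size 7 with normexp and 0 with 1 wild-type array left out. Of 32 named genes called, 17 kept their call under every alternative. Directions reversed with normexp at the central domains (1.26), the right flank of centromere 1 (-0.12), H3K9me2 below 0 (-0.24) and 0 to 1 (-0.20), pap1 (-0.12), pdc101 (0.51), rdp1 (-0.054), rfc3 (-0.30) and swi1 (-0.20). They reversed with equal deviation at the rDNA (0.0622), the rDNA between rRNA genes (0.32) and mei4 (0.0125), and in the ChIP channel alone at the rDNA (0.67) and between rRNA genes (0.64). The cause of these changes was not tested.

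Gene calls with 1 wild-type array left out could not be made, since 1 array against 1 leaves no residual degree of freedom. The mating-type and pNSU contigs have no values in the deposited table, and the rDNA none without suffixed probes. No paired analysis was possible because swi6Δ has 1 array and its label carries no replicate number.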

Other observations

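The mitochondrial contig, whose DNA carries no nuclear chromatin, served as a look at signal outside the nucleus. Its 61 probes had a median ratio of -2.55 in swi6Δ, against -0.96 and -2.71 on the wild-type arrays, so the wild-type arrays lay further from each other than swi6Δ from array 2. In the extract the median was 4.02 in swi6Δ, against 3.91 and 3.98 in wild type.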
